A study of Mus musculus with 6 samples.

Results

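The platelet-derived growth factor (PDGF) family was examined in colon of 3 control mice and 3 Islr knockout mice. The family was taken by gene name as the ligand genes Pdgfa, Pdgfb, Pdgfc and Pdgfd, the receptor genes Pdgfra and Pdgfrb, and the receptor-like gene Pdgfrl. These are 7 of the 23462 genes that could be named on the array, and all 10 of their probes are accounted for here. Islr encodes a secreted protein with leucine-rich repeats and an immunoglobulin domain. All 6 animals were males. Per the sample source, both groups alike had drunk 3.5% dextran sulfate sodium, which injures the colonic epithelium, for 5 days and then recovered for 1 day, although another field, on treatment, says that there was none. The labels give neither the age nor the strain of the mice, nor how or in which cells Islr was disrupted. The design text says that the colon samples were flow separated and names no gate. All 10 epithelial and all 10 smooth muscle markers examined were well above background on all 6 arrays, as were all 10 endothelial and all 9 macrophage markers; whether cells had been enriched was not tested.

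PDGFs are secreted dimers that signal through receptor tyrosine kinases. The A and C forms act mainly through the alpha receptor, the D form through the beta receptor, and the B form through both. In the gut, PDGF-A comes largely from the epithelium and acts on Pdgfra-positive mesenchymal cells beneath it, while PDGF-B from endothelium recruits pericytes, which carry the beta receptor. PDGF-C and PDGF-D are secreted in a latent form and become active once a protease has removed their CUB domain.

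Levels are given as the log2 of the deposited processed signal after the 75th percentile of the same array was subtracted, so 0 stands for that percentile. The 75th percentile itself ranged from 6353 to 7111 intensity units in controls and from 4911 to 5820.0 in knockouts, and between 69.4% and 75.4% of spots were well above background. Islr served as the check of the labels and read 1.57, 1.24 and 1.21 in controls against -1.40, -0.93 and -1.31 in knockouts. It fell by 2.44 on the log2 scale (SE 0.21, limma adjusted p 0.0171, with the outlier spot of control replicate 1 left out). Without knockout replicate 3 its adjusted p was 0.0580. Controls occupied 1 row of the slide and knockouts the other, so slide row and genotype cannot be told apart. In bulk RNA, fewer cells of a type and less RNA per cell cannot be told apart either, which holds for each value that follows.

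Within the family the probe of Pdgfrb fell in the knockout. The probe of Pdgfd passed the test as well, but it was well above background in controls only, so its size is known only as a bound. The probes of Pdgfb, Pdgfc, Pdgfra and Pdgfrl read lower without passing the test, and both probes of Pdgfa read higher without passing it. Of the 10 probes 8 could be tested, and 2 of these, Pdgfrb and Pdgfd, both lower, had a limma adjusted p under 0.05, where 3.97% of all 35351 tested probes did (2.42% lower and 1.55% higher). All 8 had an unadjusted p under 0.05, against 26.8% of all tested probes. Pdgfd entered the test through the controls alone. When only probes well above background on all arrays were tested, 1 PDGF probe passed, Pdgfrb, where 1050 of 31866 probes did. With outlier spots kept all 10 could be tested, and the same count of 2 passed (4.85% of 40172 probes). The groups then did not overlap at 9 of the 10 probes, 7 lower and 2 higher, against 34.9% of all probes (17.6% lower and 17.3% higher). The median change over all tested genes was 0.014 on the log2 scale, and 48.8% of them were lower.

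**Figure D1:**
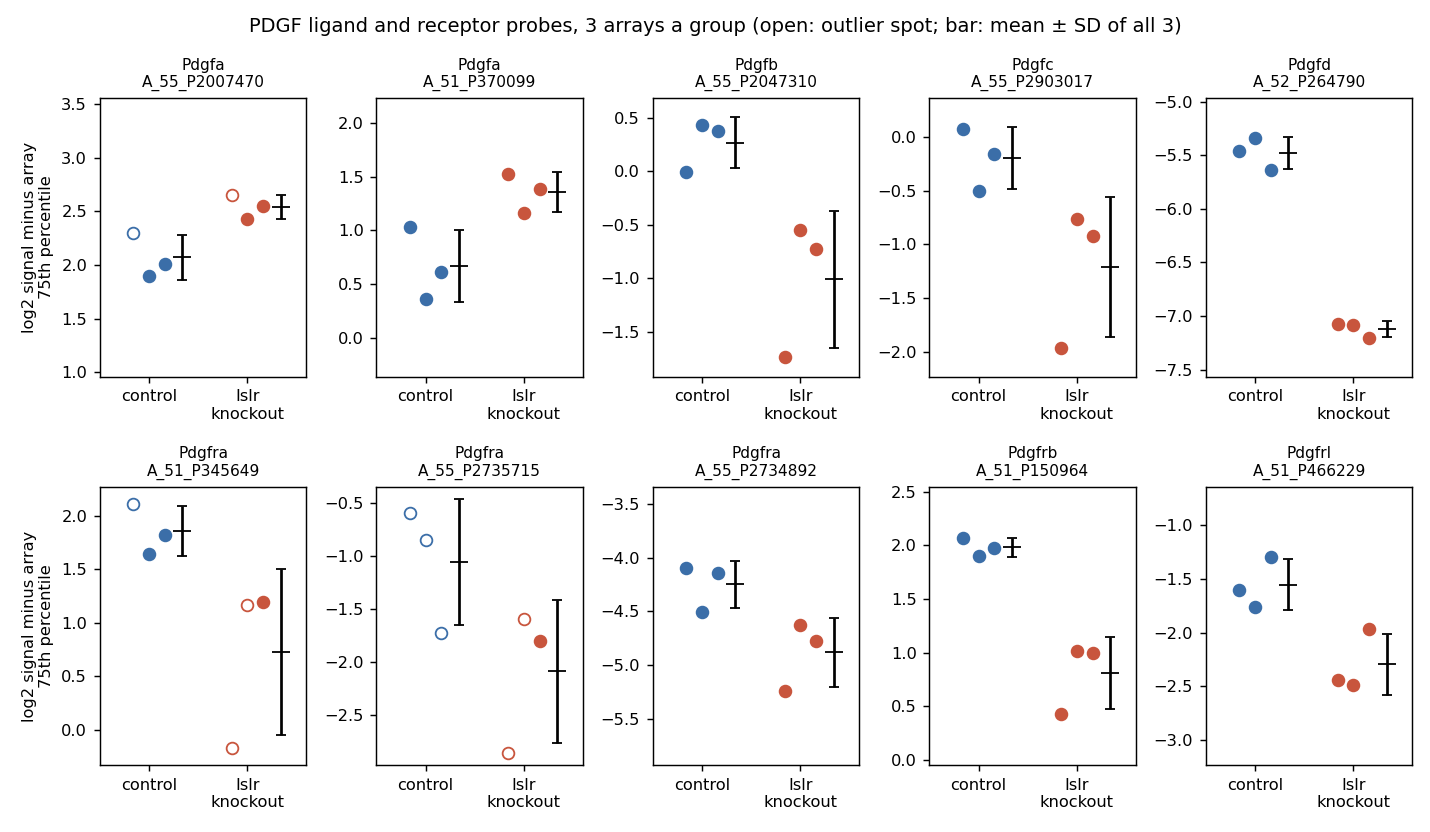
Log2 signal minus the array's 75th percentile (vertical axes, each with its own range) of the 10 PDGF family probes on 3 control (blue) and 3 Islr knockout (red) arrays; open points are spots marked as outliers, and bars are the mean ± SD of all 3 arrays. Knockout points lie below control points in 7 panels, above them in both Pdgfa panels, and overlap them at 1 Pdgfra probe.

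The ligand Pdgfa was the exception in direction. Its brighter probe (A_55_P2007470, NM_008808) read 2.30, 1.90 and 2.01 in the controls, in order of replicate, against 2.65, 2.43 and 2.55 in the knockouts. Its other probe (A_51_P370099) read 1.03, 0.36 and 0.61 in controls against 1.52, 1.16 and 1.39 in knockouts. At both probes every knockout array lay above every control array, and control replicate 1 was the highest control. The difference was 0.53 at the brighter probe (SE 0.20, 95% interval 0.0068 to 1.06, limma adjusted p 0.183), with 2 arrays a group since the spots of control replicate 1 and knockout replicate 1 were outliers. It was 0.69 at the other (SE 0.22, interval 0.17 to 1.21, limma adjusted p 0.106, n = 3 a group), a 1.61-fold higher signal. Neither passed the threshold, and both did with array weights, at 0.57 (adjusted p 0.0429) and 0.86 (adjusted p 0.0151). Array weights called 9292 of all 35351 tested probes, against 1403 without them.

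Pdgfb, the ligand that endothelium supplies to pericytes, read -0.0065, 0.43 and 0.37 in controls against -1.74, -0.55 and -0.73 in knockouts (A_55_P2047310, NM_011057). The groups did not overlap, and knockout replicate 1 was the lowest array. The control mean was 0.27 ± 0.24 and the knockout mean -1.01 ± 0.64 (SD, n = 3 each). The difference of -1.27 (SE 0.33, interval -2.07 to -0.48) is a 2.42-fold lower signal that missed the threshold (limma adjusted p 0.0759). With median centring it passed, at -1.24 and an adjusted p of 0.0445. It also passed with normexp background correction, with (adjusted p 0.0447) and without (adjusted p 0.0494) quantile normalization, and with array weights (adjusted p 0.0132). In that order, these settings called 2249, 2773, 2558 and 9292 of all 35351 tested probes, against 1403 in the main fit. Without knockout replicate 1 the difference was -0.91.

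Pdgfc, a ligand of the alpha receptor, read 0.07, -0.50 and -0.15 in controls against -1.96, -0.76 and -0.92 in knockouts (A_55_P2903017, NM_019971). The groups again did not overlap, and knockout replicate 1 again lay apart from the other knockouts. The difference was -1.02 (SE 0.35, interval -1.84 to -0.19, limma adjusted p 0.123), a 2.03-fold lower signal that did not pass. Without knockout replicate 1 it was -0.64 (adjusted p 0.177), and with array weights -0.59 (adjusted p 0.104).

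Pdgfd, a ligand of the beta receptor, had the lowest p of the family, at a dim probe. It read -5.46, -5.34 and -5.64 in controls against -7.08, -7.08 and -7.20 in knockouts (A_52_P264790, NM_027924), which in intensity units is 145, 176 and 132 against 36.4, 43.0 and 39.2. It was well above background on all 3 control arrays and on none of the knockout arrays. The level in knockouts is therefore a bound, taken on each array as the lowest signal among probes well above background. Against that bound Pdgfd was at least 1.02-fold higher in controls, with measured means of -5.48 ± 0.15 and -7.12 ± 0.072 (SD, n = 3 a group) and a limma adjusted p of 0.0156 for the difference of -1.64 (SE 0.15). Leaving out control replicate 2 gave an adjusted p of 0.0569, and leaving out knockout replicate 3 gave 0.0555. With normexp background correction the difference was -0.44 (adjusted p 0.0959), and -0.61 with quantile normalization added (adjusted p 0.0415).

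The alpha receptor Pdgfra, the marker of subepithelial fibroblasts, had 3 probes, and outlier spots kept both brighter ones from being tested. The brightest (A_51_P345649, NM_011058) read 2.11, 1.64 and 1.82 in controls against -0.16, 1.16 and 1.19 in knockouts. All knockouts lay below all controls, and knockout replicate 1 lay more than 1 log2 unit below the other knockouts. With the outlier spots of control replicate 1 and knockout replicates 1 and 2 kept, the difference was -1.13 (SE 0.38, interval -2.04 to -0.21), a 2.18-fold lower signal with a limma adjusted p of 0.120. Without knockout replicate 1 it was -0.68 (adjusted p 0.138).

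The second Pdgfra probe (A_55_P2735715, NM_001347719) read -0.60, -0.86 and -1.73 in controls against -2.86, -1.60 and -1.81 in knockouts, with outlier spots on 5 of 6 arrays. The groups overlapped there, and the difference was -1.03 with all spots kept (SE 0.42, limma adjusted p 0.175). The dimmest probe (A_55_P2734892, NR_144636, a non-coding transcript of the gene) had no outlier spot and read -4.10, -4.50 and -4.14 in controls against -5.25, -4.63 and -4.77 in knockouts. Its difference was -0.63 (SE 0.22, interval -1.16 to -0.11, limma adjusted p 0.128), and it was not well above background in knockout replicate 1. With normexp and quantile normalization it passed, at -0.56 (adjusted p 0.0457), where 2773 of all 35351 tested probes did. With array weights it was -0.38 (adjusted p 0.146). All 3 probes thus had a lower mean in the knockout, and none passed without these steps.

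The beta receptor Pdgfrb, whose carriers include pericytes and other mural cells, was the bright member that passed. It read 2.07, 1.90 and 1.97 in controls against 0.42, 1.02 and 1.00 in knockouts (A_51_P150964, NM_008809), or 26714, 26552 and 25687 intensity units against 6590, 11773 and 11516. The controls lay close together, and the highest knockout lay well below them. Pdgfrb fell by 1.17 on the log2 scale (SE 0.20, interval -1.66 to -0.68), a 2.25-fold lower signal with a limma adjusted p of 0.0395. The call was lost in each of the 6 fits that left out 1 array, with differences of -1.27 to -0.98 and adjusted p of 0.0504 to 0.111. These were 0.0523, 0.111 and 0.106 on leaving out control replicates 1, 2 and 3 in turn, and 0.0576, 0.0504 and 0.0874 for the knockouts in the same order. It was also lost with no filter on dim probes (adjusted p 0.0600).

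Pdgfrl, which encodes a receptor-like protein without a kinase domain, read -1.61, -1.76 and -1.29 in controls against -2.44, -2.48 and -1.97 in knockouts (A_51_P466229, NM_026840). The groups did not overlap, and here knockout replicate 1 did not stand apart. The difference was -0.74 (SE 0.21, interval -1.25 to -0.24, limma adjusted p 0.0885), a 1.68-fold lower signal that did not pass.

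**Figure D2:**
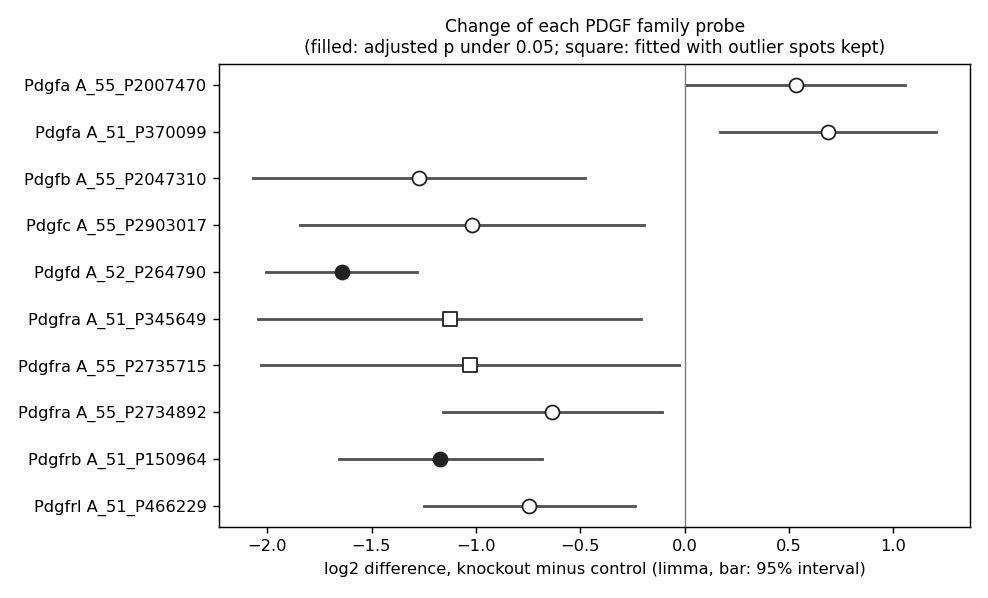
Log2 difference, knockout minus control, of each PDGF family probe with its 95% interval from limma; filled points had an adjusted p under 0.05 and squares were fitted with outlier spots kept. Both Pdgfa probes lie above 0, at 0.53 and 0.69, and the other 8 lie between -1.64 and -0.63, with Pdgfd and Pdgfrb filled.

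Differences between members were taken within each array, with the brightest probe of each gene, outlier spots kept and no test. The log2 difference of Pdgfa minus Pdgfra, an epithelial ligand and its receptor, was 0.19, 0.26 and 0.19 in controls against 2.81, 1.27 and 1.35 in knockouts. The groups did not overlap, and the shift between their means was 1.598. At these probes Pdgfa read higher and each of the other 6 members lower, all without overlap. Pdgfa minus each of them was therefore bound to be higher in every knockout, and only the size of the shift is added here. The shifts ran from 1.22 (Pdgfrl) to 2.11 (Pdgfd, whose knockout values are not well above background). Pdgfb minus Pdgfrb, the ligand and receptor of the vessel wall, was -2.08, -1.47 and -1.60 in controls against -2.16, -1.57 and -1.73 in knockouts, overlapping with a shift of -0.10. The shift was 0.044 for Pdgfra minus Pdgfrb and 0.11 for Pdgfc minus Pdgfra, where the groups overlapped too. A probe's brightness also depends on its sequence, so only the shifts, not the levels, can be set against each other.

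**Figure D3:**
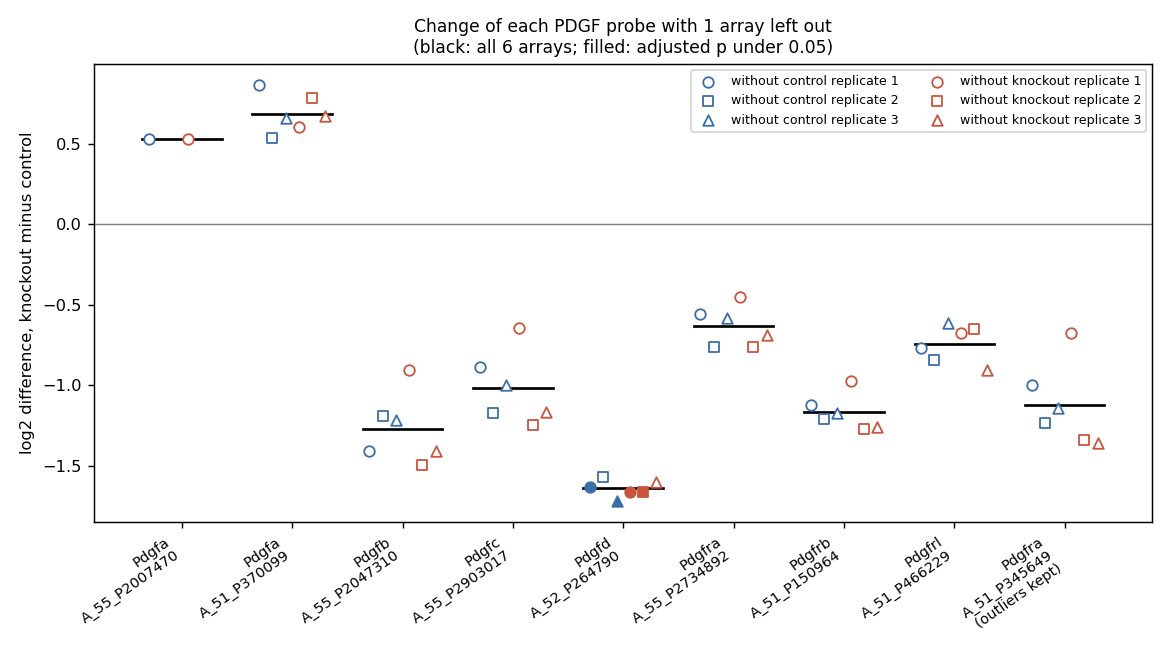
Log2 difference, knockout minus control, of the PDGF probes with all 6 arrays (black lines) and with 1 array left out (blue, a control left out; red, a knockout left out; filled, adjusted p under 0.05). No difference changes sign, and Pdgfd keeps its call in 4 of 6 fits and Pdgfrb in 0. Leaving out knockout replicate 1 brings Pdgfb, Pdgfc, Pdgfra and Pdgfrb closest to 0. Pdgfra A_55_P2735715 is not shown, and Pdgfa A_55_P2007470 could be fitted in 2 of the 6.

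Since Pdgfa differed in direction from the ligands Pdgfc and Pdgfd, the sequences before their transcription starts are shown. RefSeq's promoter table (GRCm38.p6) held 4 of the 7 members, with 5 starts. Of each, the 250 bases before the start were searched on both strands. The GC box was searched as GGGCGG and the AP-1 site was searched as TGANTCA. The TEAD site was searched as GGAATG, the TATA box as the letters TATAAA, and an E-box of the Twist type as the letters CATATG. No match overlapped a match of another motif. Capitals mark the matches. The Pdgfa window is that of the outer of its 2 listed starts, and the Pdgfd sequence stops at the outermost annotated start of the gene.
Pdgfa, chr5:138994945-138995194, minus strand: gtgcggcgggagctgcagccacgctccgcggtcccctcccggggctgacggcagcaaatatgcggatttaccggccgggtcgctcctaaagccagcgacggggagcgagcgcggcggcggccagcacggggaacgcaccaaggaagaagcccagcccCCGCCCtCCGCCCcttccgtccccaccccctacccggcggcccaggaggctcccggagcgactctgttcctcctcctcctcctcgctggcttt
Pdgfc, chr3:81036166-81036415, plus strand: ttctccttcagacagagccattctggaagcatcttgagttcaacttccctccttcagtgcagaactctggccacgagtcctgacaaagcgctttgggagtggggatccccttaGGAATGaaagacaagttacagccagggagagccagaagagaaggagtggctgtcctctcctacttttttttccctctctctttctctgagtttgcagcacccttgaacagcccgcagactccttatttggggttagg
Pdgfd, chr9:6168236-6168362, plus strand: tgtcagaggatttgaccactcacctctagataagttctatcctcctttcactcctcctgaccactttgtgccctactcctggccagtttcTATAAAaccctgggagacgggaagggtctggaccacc
The Pdgfa window held 2 GC boxes, 93 and 86 bases before the start, a motif found in 32.7% of 32851 such windows, and the window of its other start held 1. The Pdgfd sequence held a TATA box 37 bases before the outermost start (12.4% of windows), and the Pdgfc window held a TEAD site 137 bases before the start (12.6% of windows). The AP-1 letters (6.75% of windows) and the E-box letters (3.46%) were in none of the 5 windows, and the Pdgfra window held no match. The GC content was 72.4% before this Pdgfa start, 50.8% for Pdgfc, 53.6% over the whole Pdgfd window and 54.4% for Pdgfra, against a median of 52.4% over all windows. These are matches of letters only.

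Of 11 genes that process or bind PDGFs, 10 were tested. At each gene's brightest tested probe Plau, Pcsk5 and Lrp1 fell and no other gene was called (3 of 10, where 3.82% of 16451 tested genes were called, 2.47% lower). Plau entered the test through the controls alone. With only probes well above background on all arrays, the calls over this and the following pathway lists went from 4 to 3. The median change of this list was -0.62, with 8 of 10 lower. Of the 10, 5 (50%) had an unadjusted p under 0.05, against 28.2% of all tested genes. These 5 include the 2 genes that were higher, Pcsk7 and St14. Plau encodes urokinase, which can activate PDGF-D. It read -4.44, -5.01 and -4.02 in controls against -7.62, -7.83 and -6.84 in knockouts, where no array had it well above background. Against the bound it was at least 2.02-fold higher in controls, with measured means of -4.49 and -7.43 and a limma adjusted p of 0.0233.

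Lrp1 encodes a large endocytic receptor that associates with the beta receptor. It read 2.31, 2.04 and 1.95 in controls against 0.81, 0.84 and 0.81 in knockouts and fell by 1.28 on the log2 scale (SE 0.16, limma adjusted p 0.0245). Pcsk5, a proprotein convertase of the kind that cleaves PDGF-A and PDGF-B precursors, fell by 2.12 (SE 0.34, limma adjusted p 0.0418, with the outlier spot of 1 array left out). Pcsk7, another proprotein convertase of the list, went the other way without passing (0.81 higher, SE 0.24, limma adjusted p 0.0953). Furin could not be tested. St14, encoding the epithelial protease matriptase, which can also activate PDGF-D, was higher by 1.80 at its brightest probe and did not pass (SE 0.56, limma adjusted p 0.104); a dimmer probe passed, at 1.89 (SE 0.38, adjusted p 0.0497). Plat, whose product activates PDGF-C, differed by -0.84 (adjusted p 0.633). Leaving out knockout replicate 3 ended the calls of Plau (adjusted p 0.0510), Lrp1 (0.0774) and Pcsk5 (0.102), and leaving out knockout replicate 1 did so too (0.0567, 0.0524 and 0.0824). Without control replicate 3 Plau (0.0618) and Lrp1 (0.0640) were lost, and Lrp1 (0.0765) also on leaving out control replicate 2. With normexp background correction Plau differed by -1.11 (adjusted p 0.0262), and with no filter on dim probes Pcsk5 did not pass (0.0659).

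Downstream of the receptors, 34 of 39 signalling genes were tested and 0 were called at the brightest probe, with a median of -0.059 and 20 of 34 lower. Of the 34, 7 (20.6%) had an unadjusted p under 0.05, against 28.2% of all tested genes. The lowest p values were those of Src, a kinase recruited by both receptors (0.88 higher, SE 0.20, limma adjusted p 0.0610), and Ptprj, a phosphatase that acts on the beta receptor (1.05 higher, SE 0.26, adjusted p 0.0682). A dimmer Ptprj probe passed, at 1.98 (SE 0.32, adjusted p 0.0346). Of 22 early and feedback genes that respond to MAPK signalling, 20 were tested and 0 called, with a median of -0.45 and 13 of 20 lower. Of the 20, 7 (35%) had an unadjusted p under 0.05, against the same 28.2%. The transcription factor Egr2 differed by -1.60 (SE 0.39, adjusted p 0.0667) and Etv5 by -0.88 (SE 0.23, adjusted p 0.0739).

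Among 13 tested relatives of the family, the class III and VEGF receptors and their ligands, 12 were lower, with a median of -0.38, and Pgf alone was called. That is 1 of 13, where 3.82% of all tested genes were called, 2.47% lower. Of the 13, 5 (38.5%) had an unadjusted p under 0.05, against 28.2% of all tested genes. Pgf encodes placental growth factor, a VEGF receptor ligand. It read -1.11, -1.12 and -1.56 in controls against -2.76, -2.49 and -2.51 in knockouts and fell by 1.32 on the log2 scale (SE 0.19, limma adjusted p 0.0299). Its adjusted p was 0.0924 and 0.0568 on leaving out control replicates 2 and 3, and 0.0650 and 0.0821 on leaving out knockout replicates 1 and 3. Csf1, the ligand of a class III receptor, differed by -0.98 at its brightest probe (adjusted p 0.0887), and a dimmer probe passed, at -1.13 (adjusted p 0.0354). Csf1r, a class III receptor gene that lies next to Pdgfrb in the genome, differed by -0.37 (SE 0.21, adjusted p 0.296). Of the 14 protein-coding neighbours of the 7 members, 7 were tested and 0 were called in limma, with 1 at an unadjusted p under 0.05 (Prkar1b beside Pdgfa, -0.47).

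**Figure D4:**
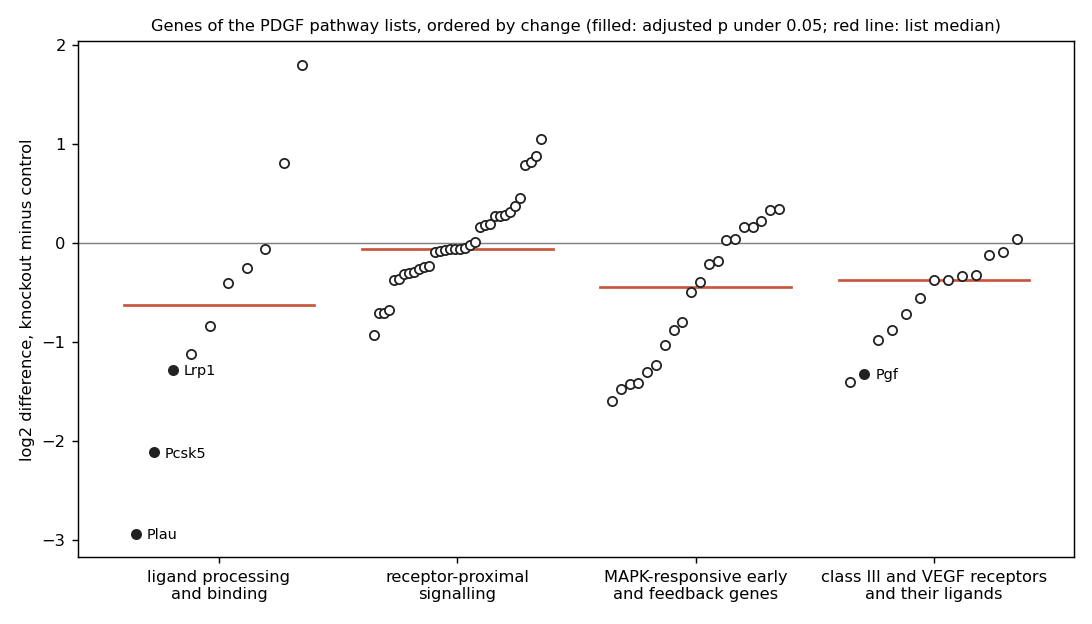
Log2 difference, knockout minus control, of each tested gene of the 4 PDGF pathway lists at its brightest tested probe, ordered by change; filled points had an adjusted p under 0.05 and red lines are list medians. Plau, Pcsk5, Lrp1 and Pgf are filled and lie below 0, and the receptor-proximal genes centre near 0 (median -0.059).

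Markers of the cells that make or answer to PDGF were read on the same arrays. For each list the signals of its genes, relative to the 75th percentile, were summed on each array and put on a log2 scale. Each sum took every listed gene at its brightest probe, tested or not, with outlier spots kept. It can thus cover more genes than were tested, and bright genes weigh most in it. Of 8 markers of Pdgfra-high subepithelial fibroblasts 7 were lower, with a median of -1.60 and sums of 3.89 to 4.27 in controls and 2.25 to 3.39 in knockouts. Bmp7 alone was called (-2.43, SE 0.33, limma adjusted p 0.0277), which is 1 of 8, where 2.47% of all tested genes were called lower. The lineage factor Foxl1 differed by -3.07 (adjusted p 0.0509), with knockout replicate 1 not well above background. Of 8 general fibroblast markers 7 were lower and 0 were called (median -0.33), with sums of 5.30 to 5.45 against 4.68 to 5.08. Of 6 tested markers of Pdgfra-low fibroblasts 4 were lower and 0 called (median -0.25, sums 4.56 to 4.65 against 3.79 to 4.31).

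Beside Pdgfrb, 5 of 6 tested pericyte markers were lower and 0 were called (median -0.34). The sums of all 3 fibroblast lists, given above, were lower without overlap. The sums over all 9 listed pericyte markers overlapped, at 4.79 to 5.09 in controls and 4.63 to 4.87 in knockouts. The brightest tested marker, Mcam, was alone in being higher, by 0.36 (limma adjusted p 0.383), and weighs heavily in these sums. On knockout replicate 1 Mcam read 4.26, where the sum was 4.87. Notch3, which acts in mural cells, differed by -1.12 (SE 0.26, adjusted p 0.0609), while Cox4i2 differed by -0.015 (adjusted p 0.973). All 8 tested smooth muscle markers were higher, with 0 called (median 0.36, sums 5.78 to 6.08 against 6.21 to 6.42). Of the 5 markers of muscle-layer interstitial cells, some of which carry Pdgfra, 3 were tested and 0 called (median -0.40, 2 of 3 lower, highest change 0.017). The sums over all 5 were 2.64 to 3.30 in controls against 3.45 to 3.86 in knockouts. That is the other way from the fibroblast lists, but also from the tested markers of this list. These sums take in Ano1 and Thbs4, which could not be tested, so the rise itself was not tested. Beside Pdgfb, all 9 tested endothelial markers were lower, with 0 called (median -1.17, sums 3.98 to 4.15 against 2.20 to 3.47). Knockout replicate 1 had the lowest sum of the endothelial, macrophage and all 3 fibroblast lists, as it had the lowest Pdgfb, Pdgfc, Pdgfra and Pdgfrb values. It had the highest sum of the smooth muscle (6.42), interstitial (3.86) and epithelial (6.58) lists, and the highest Pdgfa value at both probes. The same array had the lowest 75th percentile (4911 intensity units) and the smallest share of spots well above background (69.4%). It also had the largest share of outlier spots (16.0%). The part of array quality in these values was not tested. Among platelet markers Ppbp was well above background in controls only (at least 6.99-fold higher there, limma adjusted p 0.0170), 2 of 4 tested were lower, and Gp1ba was well above background on no array. The median change of the 4 was 0.0064. The platelet sums over all 7 listed genes were 1.01 to 2.15 in controls against -0.077 to 0.50 in knockouts. They take in genes that could not be tested, so the lower platelet sum itself was not tested. All 6 tested macrophage markers were lower, with 0 called (median -0.81, sums 4.19 to 4.71 against 3.39 to 4.05). Of 6 tested neutrophil markers 4 fell, against 2.47% of all tested genes, while Csf3r was 0.17 higher without passing (adjusted p 0.483; list median -2.83, sums 4.56 to 4.66 against 4.09 to 4.24), and all 5 enteric glia markers were lower with 0 called (median -0.65). Of 6 skeletal muscle markers only Myh1 was called, higher by 2.07 (limma adjusted p 0.0160), where 1.35% of all tested genes were called higher.

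Beside Pdgfa, all 8 tested epithelial markers were higher and 0 were called (median 1.24), with sums of 4.33 to 5.92 in controls and 6.22 to 6.58 in knockouts. Control replicate 1, the control with the highest Pdgfa, also had the highest epithelial sum of the controls, and control replicate 2 had the lowest of both. The part of each of these cell types in the values of the PDGF genes was not tested.

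**Figure D5:**
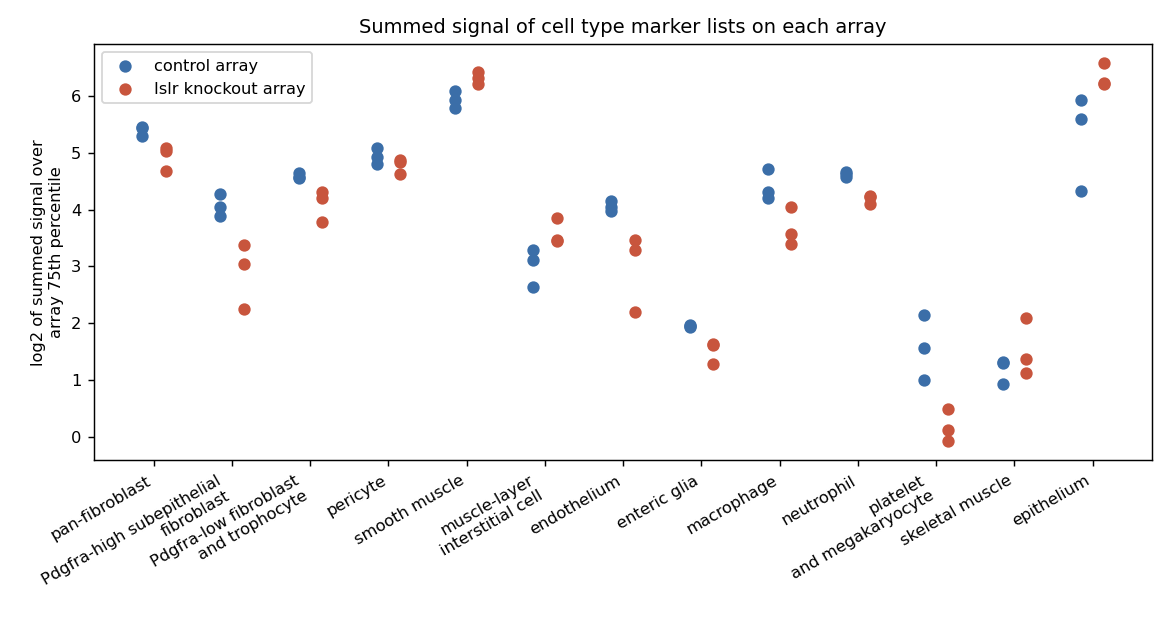
Log2 of the summed signal of each marker list over the array's 75th percentile, on 3 control (blue) and 3 Islr knockout (red) arrays. Knockouts lie below controls for the fibroblast, endothelial, glial, macrophage, neutrophil and platelet lists, above them for smooth muscle, muscle-layer interstitial cells and epithelium, and overlap them for pericytes and skeletal muscle.

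The genes nearest in pattern to Pdgfrb were found from the root mean square difference of centred log2 signals over the 6 arrays. Among 15302 genes these were Lamc1, a laminin chain (0.046), Twist1, a mesenchymal transcription factor (0.056), and Man1c1, a Golgi mannosidase (0.062). Having been chosen for this likeness, they are given without a test. No such genes are given for Pdgfd, whose knockout values are not well above background. Beside the Pdgfrb values above, Lamc1 read 1.86, 1.63 and 1.79 in controls against 0.18, 0.76 and 0.86 in knockouts.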

How the data were processed

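Expression was measured with 1 single-colour Agilent array per mouse, 3 controls and 3 Islr knockouts, grouped by labelled genotype and numbered in accession order. The deposited processed signals are intensities on a linear scale, background-subtracted and spatially detrended in Feature Extraction 11.5.1.1 (per the file headers; the submitters' processing notes name 10.7) and not scaled between arrays. The labels name Cy3 and a green signal column, but the files hold the red channel, which was used. Of the 59305 non-control spots of an array, 3.26% to 16.0% were marked as outliers and were left out; none was saturated.

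From these, log2 values minus each array's 75th percentile were computed. Testing required that either group had the probe well above background on its 3 arrays, and that both groups kept 2 or more usable values. Genotype was tested with limma 3.58.1 in R 4.3.3, two-sided, over 35351 of 56605 probes with Benjamini-Hochberg adjustment at a 5% false discovery rate; the procedure was tested on simulated data. The array number limits the precision, and an exact permutation test of 3 against 3 cannot go below 0.1. Probes were named by RefSeq accession (33767 of 56605, 59.7%); the files' coordinates are mm9 and are not printed. In lists, the brightest tested probe stood for a gene. The marker sums instead took each listed gene's brightest probe, tested or not, with outlier spots kept.

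All PDGF probes and Islr were named, and of each pathway list the called genes or those with the lowest p, of each marker list at most 3. St14, Plat, Pcsk7, Furin, Csf1, Csf1r, Prkar1b, Cox4i2, Mcam, Ano1, Thbs4, Csf3r and the dimmer probes were chosen after their values were seen. Since nothing says more than that the samples came from different mice, p-values measure the spread between these samples. The members and lists were chosen with earlier results of these data known. Alternatives were other background corrections and scalings, outlier spots kept, other filters, array weights, the deposited value table of intensities (log2 correlation with the scanner files at least 0.999999) and each array left out.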

Additional observations from a re-analysis of the deposited data

How the results depend on the processing

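No PDGF probe that was followed across the settings changed direction in any fit. The Pdgfra probe A_55_P2735715 was not followed, and the brighter Pdgfa probe could be fitted in 2 of the 6 fits with 1 array left out. The 2 PDGF calls became 4 with normexp and quantile normalization, 5 with array weights, 1 with no filter on dim probes and 1 when only probes well above background on all arrays were tested, which leaves Pdgfd out; they were 0 to 1 with 1 array left out. The 4 calls in the pathway lists became 9 with normexp, 11 with normexp and quantile normalization, 9 with median centring, 26 with array weights and 7 with each gene's lowest-p probe, and 0 to 6 with 1 array left out. Over the whole array 1403 calls became 2558 with normexp, 2773 with normexp and quantile normalization, 2249 with median centring, 2185 with quantile normalization, 484 with no filter and 9292 with array weights, and 40 to 2114 with 1 array left out. The share of higher calls was 39.1%, against 51.1% with normexp and 49.4% with array weights; with 1 array left out it ranged from 10% (without knockout replicate 3) to 55.1% (without control replicate 1). For single genes, 175 values under an alternative kept their side of the threshold, 25 lost the call and 7 gained it. The causes of these shifts were not tested. Fits of the brightest Pdgfra probe with outlier spots kept and 1 array left out were added after seeing the data. No paired analysis was possible because the labels give no replicate numbers. Dim signals limit Pdgfd and Plau, whose knockout levels are bounds.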
